A study of Mus musculus with 19 samples.

Results

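The eosinophil-associated ribonucleases (Ear genes) were examined in mouse lung by taking every array probe whose RefSeq accession maps to Ear1, Ear2, Ear3, Ear6, Ear10 or Ear14, each probe on its own. Of these 6 genes, 4 had a matched probe (Ear1, NM_007894; Ear2, NM_007895; Ear6, NM_053111; Ear10, NM_053112), which gave 4 probes out of 55681 on the array. All 4 were among the 30999 probes whose lung signal passed the filter on dim probes. No probe was matched to Ear3 or Ear14, and these genes were not analysed here. The genes were selected on their log2 differences between the doses and vehicle in these same arrays, so those differences are given as a description, with no p-value and nothing read from how many of them met the call rule used for other genes.

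Lung RNA came from 18 adult male MutaMouse animals, a transgenic strain made for mutation assays, aged about 12 weeks and housed singly. The mice were gavaged on 28 consecutive days with olive oil alone (D0, 5 mice) or with olive oil carrying a defined mixture of 8 polycyclic aromatic hydrocarbons at 15 (D1, 4 mice), 30 (D2, 5 mice) or 60 mg benzo[a]pyrene equivalents/kg-bw/day (D3, 4 mice), and lungs were taken 72 h after the last gavage. Each 2-colour Agilent array set lung RNA (red) against Universal Mouse Reference RNA from 11 mouse cell lines (green), and values are log2 ratios of red over green. A log2 difference of -1 between groups is a fall to 50% of the ratio, and errors are the SD over mice for levels and the SE of the limma model for differences.

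Ear genes encode small secreted ribonucleases of the ribonuclease A superfamily, mouse counterparts of the human eosinophil-derived neurotoxin and eosinophil cationic protein. They are granule proteins of eosinophils and are also known from macrophages, and several Ear transcripts are commonly used to mark alveolar macrophages in mouse lung. The genes arose by repeated duplication on mouse chromosome 14 and are very alike in sequence, so a probe to 1 of them may bind transcripts of another. The probe sequences were not available here, and cross-hybridisation between members could not be checked.

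How alike these genes are can be seen in the 250 bases before the annotated start of the 4 genes with a probe, printed 5′ to 3′ on the strand of the gene from the RefSeq annotation of GRCm38.p6. They lie at chr14:43819640-43819889 (Ear1, minus strand), chr14:44102404-44102653 (Ear2, plus), chr14:43923597-43923846 (Ear10, minus) and chr14:51853518-51853767 (Ear6, plus). They are shown for how alike the copies are at their starts. They lie outside the transcripts and so say nothing of what a probe binds. Capitals mark a match to TTGCNNAA, the letters of a C/EBP motif.
Ear1: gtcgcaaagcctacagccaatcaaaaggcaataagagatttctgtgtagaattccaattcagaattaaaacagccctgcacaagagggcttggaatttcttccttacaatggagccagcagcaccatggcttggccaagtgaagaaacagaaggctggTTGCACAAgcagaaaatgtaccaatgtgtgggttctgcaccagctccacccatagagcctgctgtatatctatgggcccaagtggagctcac
Ear2: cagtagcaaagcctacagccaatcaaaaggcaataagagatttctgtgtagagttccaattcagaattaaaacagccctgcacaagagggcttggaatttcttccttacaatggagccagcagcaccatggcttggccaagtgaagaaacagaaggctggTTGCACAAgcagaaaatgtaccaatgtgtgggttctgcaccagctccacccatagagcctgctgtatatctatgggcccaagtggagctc
Ear10: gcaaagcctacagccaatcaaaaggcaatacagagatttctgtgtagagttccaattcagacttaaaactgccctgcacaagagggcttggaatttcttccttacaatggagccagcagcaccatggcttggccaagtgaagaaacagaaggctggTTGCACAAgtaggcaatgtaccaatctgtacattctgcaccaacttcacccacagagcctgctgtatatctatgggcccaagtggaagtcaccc
Ear6: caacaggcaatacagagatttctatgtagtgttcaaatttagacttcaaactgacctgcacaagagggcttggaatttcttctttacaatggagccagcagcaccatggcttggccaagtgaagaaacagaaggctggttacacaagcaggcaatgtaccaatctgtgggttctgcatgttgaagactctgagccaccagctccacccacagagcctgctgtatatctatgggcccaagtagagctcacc

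The Ear1 and Ear2 windows were identical at 246 of 248 aligned bases (99.2%), and Ear10 matched Ear1 at 232 of 247 (93.9%). Ear6 matched Ear1 at 212 of 229 aligned bases (92.6%). In these 4 windows the only motif found among the 5 searched on both strands was TTGCNNAA, present once in Ear1, Ear2 and Ear10 and absent from the Ear6 window. The windows of 2 other Ear genes held a match too. In Rnase2b, whose probe was well above background in 0 of 18 mice, it was the same TTGCACAA, 118 to 111 bases before the start (92 to 85 in Ear1). In Rnase2a, whose probe was so in 18 of 18 mice, it was TTGCATAA at another place, 217 to 210 bases before the start. TTGCNNAA occurred in 9.57% of 32526 windows of the same length from all genes. No window of these 4 held the STAT6 motif (5.89% of all windows), the PU.1 letters GAGGAA (23.4%), the GATA letters AGATAA (9.97%) or the aryl hydrocarbon receptor core GCGTG (28.4%). A letter match is a description of the sequence and not evidence of binding.

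In vehicle lung 3 of the 4 Ear probes were far above the reference RNA. Ear2 had a mean log2 ratio of 6.85 ± 0.39 (SD, n = 5), Ear10 of 5.39 ± 0.24 and Ear1 of 4.91 ± 0.28. Their red signals in D0 ran from 13833.5 to 27081 for Ear2, from 3056 to 6642 for Ear10 and from 1952 to 3928 for Ear1, against array medians of 114 to 151.5 over all 19 arrays. All 3 were well above background in the lung channel of all 18 mice. Ear6 was at 0.13 ± 0.15 in D0 with red signals of 118 to 152, close to the array medians, although the scanner software marked it well above background in 17 of 18 mice. Probes differ in how they bind, so these levels do not rank the genes.

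Ear1 and Ear10 had their lowest means at the middle dose, higher ones at the top dose, and means nearest to vehicle at the low dose. At D2 the ratio of Ear1 was 2.87-fold lower than in D0 and that of Ear10 2.88-fold lower. At D3 they were 1.80-fold and 1.98-fold lower. The ratio of Ear2 was 1.72-fold lower at D2 and 1.62-fold lower at D3, and the size of its decrease depended on the processing, with log2 differences at D2 of -1.29 in the red channel alone, -0.78 in the ratio, -0.48 with median centring and -0.26 with the processed signals of the scanner software. The group means of Ear6 stayed within 0.22 log2 units of vehicle at every dose (-0.39 at D2 and -0.46 at D3 with those processed signals).

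The log2 ratios of Ear1 in the 5 vehicle mice were 4.80, 4.93, 5.17, 4.49 and 5.15. In D1 they were 5.26, 4.54, 5.15 and 3.70, and in D2 they were 3.17, 3.09, 4.80, 3.01 and 2.87. In D3 they were 4.10, 4.49, 4.09 and 3.55. Thus 4 of 5 D2 mice lay below every vehicle mouse by more than 1 log2 unit, and the remaining D2 mouse (28) lay inside the vehicle range. In D1 only mouse 25 lay below the vehicle range, and in D3 the highest mouse reached the lowest vehicle value. The difference from D0 was -0.25 ± 0.34 (SE) at D1, -1.52 ± 0.32 at D2 and -0.85 ± 0.34 at D3. Without D1 mouse 25 the D1 difference was 0.07, with its sign turned, and without D2 mouse 28 the D2 difference was -1.87.

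Ear10 separated the groups more clearly. Its vehicle values were 5.21, 5.12, 5.71, 5.38 and 5.54, and its D1 values were 5.61, 4.84, 5.61 and 4.03. In D2 they were 3.62, 3.39, 4.98, 3.66 and 3.69, and in D3 they were 4.15, 4.77, 4.43 and 4.26. Every D2 and every D3 mouse lay below the lowest vehicle mouse, mouse 28 again being the highest of D2 and mouse 25 the lowest of D1. The differences from D0 were -0.37 ± 0.30 at D1, -1.52 ± 0.29 at D2 and -0.99 ± 0.30 at D3. Without D1 mouse 25 the D1 difference was -0.04, and without D2 mouse 28 the D2 difference was -1.80.

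Ear2 varied widely within vehicle lung, with log2 ratios of 6.64, 6.34, 7.28, 7.20 and 6.78. Its D1 values were 6.50, 6.11, 7.07 and 5.86, its D2 values were 5.92, 5.44, 6.36, 6.21 and 6.39, and its D3 values were 5.83, 6.29, 6.33 and 6.17. All 4 D3 mice lay under the lowest vehicle mouse, the highest of them (6.33 against 6.34) only just, while 2 of 5 D2 mice and 2 of 4 D1 mice lay inside the vehicle range. The differences from D0 were -0.46 ± 0.24, -0.78 ± 0.22 and -0.69 ± 0.24 at D1, D2 and D3, and -0.29 at D1 without mouse 25. For Ear6 the group means were 0.13 in D0, 0.03 in D1, -0.09 in D2 and -0.03 in D3, with overlapping values in all groups.

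The call rule asked for a limma p, adjusted over all tested probes by the method of Benjamini and Hochberg, no higher than 0.05 together with a change of at least 1.5-fold. By that rule 0 of 4 Ear probes were lower at D1, 2 of 4 at D2 (Ear1 and Ear10) and 1 of 4 at D3 (Ear10), and none was higher at any dose. Among all tested probes 0.465% were called lower at D1, 0.19% at D2 and 1.23% at D3, and 0.594%, 0.435% and 1.21% were called higher. The selection used these same contrasts, so nothing is read from the counts. The median difference of the 4 Ear probes was -0.31, -1.15 and -0.77 at the 3 doses, beside 0.01, -0.00351 and -0.00199 for all tested probes.

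Between treated groups, Ear1 was 0.67 ± 0.34 log2 units higher at D3 than at D2 and Ear10 was 0.54 ± 0.30 higher, and neither met the call rule there. Ear2 differed by 0.09 ± 0.24 between these doses. From D1 to D2 the differences were -1.27 ± 0.34 for Ear1, -1.16 ± 0.30 for Ear10 and -0.32 ± 0.24 for Ear2.

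**Figure D1:**
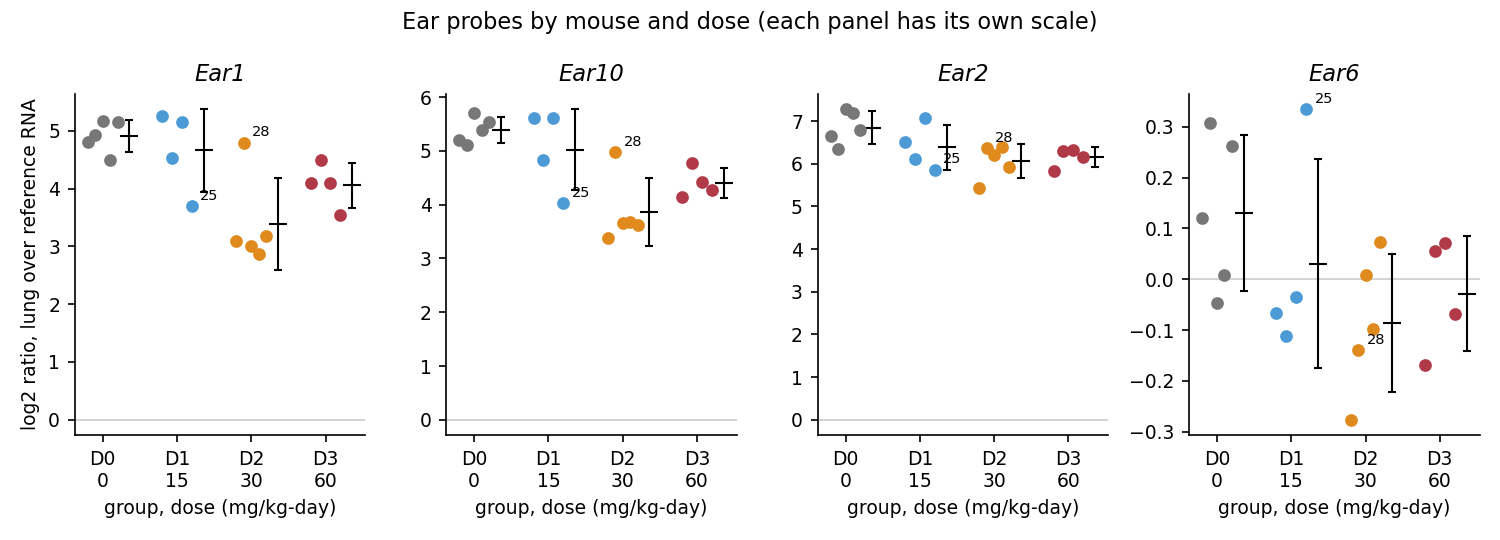
Log2 ratio of lung over reference RNA (vertical axis, a separate scale in each panel) for the 4 Ear probes in each mouse, by group and dose on the horizontal axis. Points are mice, black bars are the group mean with SD, and D1 mouse 25 and D2 mouse 28 are numbered. Every D2 and D3 mouse lies under the vehicle mice for Ear10, and D2 mouse 28 stands above the other D2 mice for Ear1 and Ear10.

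The arrays lay on 3 slides, each with all 4 groups, and the decrease at D2 was seen on every slide. Against the vehicle arrays of the same slide, Ear1 at D2 differed by -0.92, -1.89 and -1.98 on slides 1, 2 and 3, and Ear10 by -0.98, -1.87 and -1.91. Mouse 28 was on slide 1. At D3 the differences were -0.57, -0.89 and -1.84 for Ear1 and -0.70, -1.18 and -1.31 for Ear10, where the slide 3 value comes from the second array of mouse 35. At D1 the lowest was mouse 25, the D1 mouse of slide 3, with -1.45 for Ear1 and -1.51 for Ear10, while the D1 differences on slides 1 and 2 were 0.03 and 0.32 for Ear1 and 0.06 and 0.07 for Ear10. Array columns within a slide were filled in dose order on all 3 slides, and the effect of the column cannot be told apart from that of the dose.

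The array labelled D2 Mouse 23 carries an animal number from the run used for D1, and counting animals by the study's methods would put it there too. It was kept in D2 as labelled, and on its slide it sat in the column that the other D2 arrays held. With it counted in D1, the D2 difference was -1.47 for Ear1 and -1.46 for Ear10, and the D1 difference was -0.54 and -0.65.

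The reference RNA gave the Ear probes little signal, which bears on how their ratios are read. In the green channel Ear1 was well above background in 3 of 18 mice, Ear10 in 12, Ear6 in 14 and Ear2 in 18. The green signal of Ear1 ran from 49.5 to 86, so its ratio is limited by the background of the reference channel. Using the red channel alone, quantile normalised, the difference of Ear2 was -1.29 at D2 and -1.03 at D3, in place of -0.78 and -0.69. On that scale Ear10 was at -1.54 and -1.03 and Ear1 at -1.52 and -0.91.

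For Ear2 the green signal moved with the red signal although every array carried the same reference RNA. Over the 8 arrays of slide 1, with each channel centred on the array median, Pearson's r between the log2 signals was 0.99 and Spearman's rho was 0.88. Over the 7 arrays of slide 2 they were 0.97 and 1.00. Group means were not removed, and the arrays span the doses on which the genes were chosen, so no p-value is given. Leaving out the 2 arrays with the most extreme red signal gave r of 0.96 and 0.93. The median r of all tested probes was 0.04 on slide 1 and 0.03 on slide 2, and 0.029% and 0.355% of them had a higher r than Ear2. On slides 1, 2 and 3 the centred red signal of Ear2 at D2 was -0.98, -1.16 and -1.29 from D0, and the green signal was -0.44, -0.71 and -0.86 from D0. The ratio therefore changed less than the lung signal on each slide. Ear1, Ear10 and Ear6 did not follow this course on both slides: Ear1 had r of 0.77 and -0.46, Ear10 of 0.79 and -0.14, and Ear6 of -0.84 and 0.05 on slides 1 and 2. The r of Ear1 and Ear10 on slide 1 became 0.08 and -0.34 without the 2 most extreme arrays, so it rested on those arrays.

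**Figure D2:**
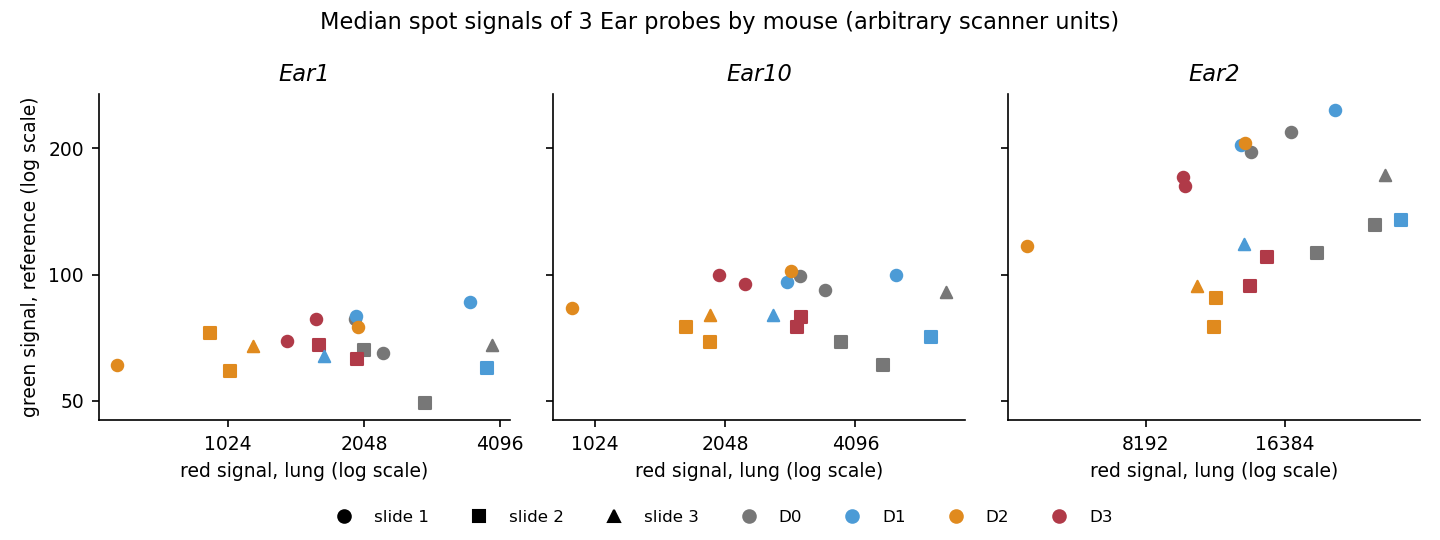
Median red signal (lung, horizontal axis) against median green signal (reference, vertical axis) in scanner units on log scales for Ear1, Ear10 and Ear2, with 1 point per mouse, colours for groups and symbols for slides; the 2 arrays of mouse 35 are averaged and drawn with slide 2. Within each slide the green signal of Ear2 climbs with its red signal, while that of Ear1 and Ear10 shows no such course on slide 2.

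Within a group, mice that were high for Ear10 tended to be high for Ear1 and for Ear2, while Ear1 with Ear2 did not pass the test. Deviations from the group mean over 18 mice gave Pearson's r of 0.92 for Ear1 with Ear10 (adjusted permutation p = 0.00318) and 0.71 for Ear10 with Ear2 (adjusted permutation p = 0.0183). Spearman's rho was 0.70 (adjusted permutation p = 0.0197) and 0.78 (adjusted permutation p = 0.00424). Labels were permuted within groups 100000 times and p-values were adjusted over 15 pairs of Ear-type probes. Without the 2 most extreme mice r was 0.80 and 0.71, and without D2 mouse 28 it was 0.85 and 0.76. Probes that bind the same transcripts would also move together, so these tests cannot show that separate genes did.

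Ear1 with Ear2 gave r of 0.41 and rho of 0.30 (adjusted permutation p = 0.228 and 0.422). With the slide means also removed, an alternative added after the data were seen, r was 0.84 for Ear1 with Ear2, 0.96 for Ear1 with Ear10 and 0.93 for Ear10 with Ear2. Slides held 52.1% of the within-group variance of Ear2, 20.7% of that of Ear1 and 13.8% of that of Ear10, beside a median of 26.6% over all tested probes. Ear6 gave r of -0.27 to -0.36 with the other members, and none passed the test (adjusted permutation p = 0.34 to 0.406).

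Of the other Ear genes, 3 had a probe, and 2 of these were tested. The probe for NM_001012766, an accession that the gene list of the study names Ear12, fell at D2 by 1.35 ± 0.31 on the log2 scale (limma adjusted p = 0.025). Rnase2a, also known as Ear11, fell by 1.22 ± 0.28 at D2 (limma adjusted p = 0.0269) and by 0.94 ± 0.30 at D3 (limma adjusted p = 0.046). With the processed signals the D2 differences were -0.78 for Ear12 and -0.58 for Rnase2a. Rnase2b, also known as Ear5, was well above background in 0 of 18 mice.

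Per mouse, Ear12 was 4.28 to 4.86 in D0 (median 4.61). In D2 it was 3.18, 2.66, 2.84 and 2.92 in mice 23, 26, 29 and 30, all below the vehicle range, and 4.61 in mouse 28, inside it. Rnase2a ran from 5.30 to 6.42 in D0 and from 4.12 to 5.74 in D2, where mouse 28 was again the highest. At D1 their differences were -0.27 (adjusted p = 0.71) and -0.42 (adjusted p = 0.476), which became 0.04 and -0.18 without D1 mouse 25 (Ear12 was at 0.06 with the processed signals), and Ear12 at D3 gave -0.76 (adjusted p = 0.144). Over 29 alternatives, leaving out single mice included, the adjusted p of Ear12 at D2 ran from 0.000671 to 0.203 and that of Rnase2a from 0.00574 to 0.672, and each lost its call in 9 of them. The mice whose omission ended the D2 call were D0 mice 1, 3 and 5 and D2 mice 26, 29 and 30 for Ear12 (adjusted p = 0.0523 to 0.0706), and D0 mice 3, 4 and 5 and D2 mice 23, 26 and 29 for Rnase2a (adjusted p = 0.056 to 0.0796). Rnase2a at D3 lost its call in 16 of 29 (adjusted p from 0.0211 to 0.743 over all 29), 11 of them with a single mouse left out. Both calls at D2 were lost with mouse 23 in D1 (adjusted p = 0.0643 and 0.0686). Within groups Ear12 followed Ear1 (r = 0.97, rho = 0.92) and Rnase2a followed Ear10 (r = 0.92, rho = 0.95), with adjusted permutation p-values of 0.000225, 0.000525, 0.00015 and 0.00015. The last of these comes from the smallest p that the permutations can give. Unchecked cross-hybridisation limits these pairs in the same way.

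**Figure D3:**
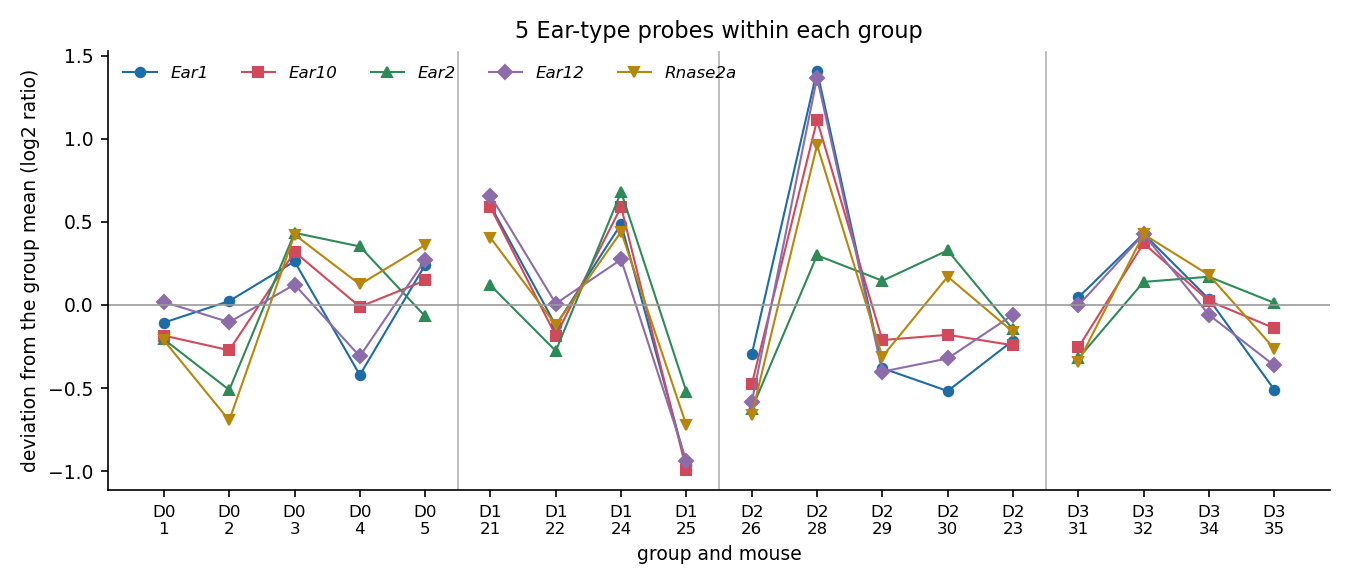
Deviation of the log2 ratio from the group mean (vertical axis) in each mouse (horizontal axis, ordered by group and slide) for Ear1, Ear10, Ear2, Ear12 and Rnase2a; vertical lines separate the groups. All 5 probes are above the group mean in D2 mouse 28 and below it in D1 mouse 25, and Ear2 rises least in mouse 28.

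None of the remaining ribonuclease A genes was called. Of 12 further probes of the family, 6 were tested: Rnase4, Rnase6 and Rnase10, the angiogenins Ang and Ang4, which promote vessel growth or act at mucosal surfaces, and Rnh1, the cytosolic inhibitor of these ribonucleases. This held for all 6 at each dose in limma. Their differences from D0 at D2 were -0.28 ± 0.19 (Rnase4), 0.31 ± 0.16 (Rnase6), -0.21 ± 0.18 (Rnase10), -0.02 ± 0.18 (Ang), 0.01 ± 0.15 (Ang4) and -0.19 ± 0.12 (Rnh1), with adjusted p from 0.387 to 0.991. Median centring turned the sign for Rnh1 and Ang at D2. The difference between these genes and the Ear genes was not tested.

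**Figure D4:**
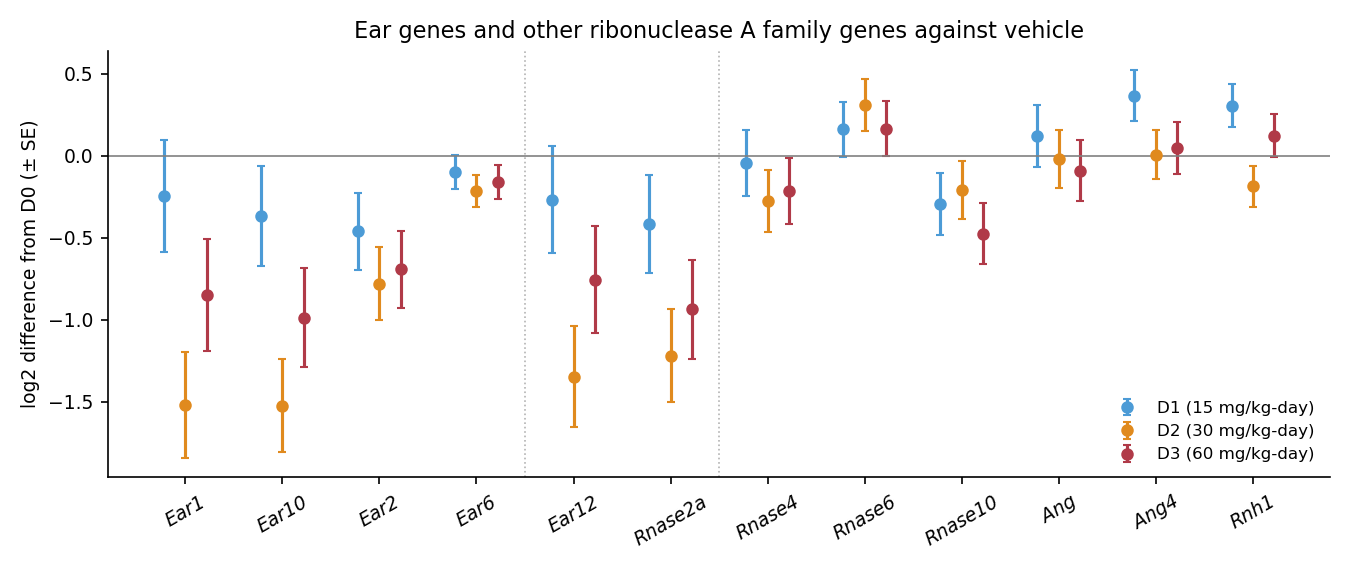
Log2 difference from D0 with its SE (vertical axis) at each dose for the 4 Ear members, for Ear12 and Rnase2a, and for 6 other ribonuclease A family genes (horizontal axis; dotted lines separate the 3 sets). Ear1, Ear10, Ear12 and Rnase2a have their lowest values at D2, between -1.22 and -1.52, and the 6 other genes lie between -0.48 and 0.37 at all doses.

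The granule genes that define eosinophils were at background. Epx (eosinophil peroxidase) and the granule major basic proteins Prg2 and Prg3 were not well above background in any of 18 mice, and Ccr3, the eotaxin receptor, was so in 5. Of the 10 eosinophil genes, 5 were tested. Il5ra, the receptor of the eosinophil growth factor IL-5, was not called, with -0.04, 0.25 and -0.18 at the 3 doses. Siglecf, a surface lectin of both eosinophils and alveolar macrophages, fell by 1.05 ± 0.26 at D2 (limma adjusted p = 0.036; 0.0259 to 0.523 over 29 alternatives, of which 11 lost the call, among them the omission of any of the 5 D0 mice). Il1rl1, the IL-33 receptor of mast cells and type 2 lymphoid cells, fell by 0.80 ± 0.14 at D3 (limma adjusted p = 0.000934; 0.728 with median centring). Cebpe, a transcription factor of granulocyte maturation, was at 0.28, 0.31 and 0.44 (limma adjusted p = 0.103, 0.0891 and 0.00603), under the 1.5-fold limit at each dose, and Hdc, the histamine-forming enzyme, at -0.18, -0.15 and -0.37 (adjusted p = 0.622, 0.752 and 0.197). The median difference of the 5 tested genes was -0.14, -0.15 and -0.37 at D1, D2 and D3.

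Genes of alveolar macrophages, the resident phagocytes of the air spaces, were all measured (13 of 13) and had mostly negative differences. At D2 12 of 13 had negative differences, beside 51.1% of all tested probes, with a median of -0.40, and 1 (Siglecf) was called lower. At D3 10 of 13 were negative, beside 50.5% of all tested probes, with a median of -0.33, and 2 were called lower, Krt79, a keratin found in these cells (-1.40 ± 0.14, limma adjusted p = 3.57e-06; 0.108 with median centring), and Fabp1, a fatty acid binding protein (-0.94 ± 0.22, limma adjusted p = 0.00943; lost with median centring and with the processed signals, where it was -0.61 with an adjusted p of 0.496). Chil3, a chitinase-like secreted protein, was at -1.39 ± 0.37 at D2 and -1.03 ± 0.39 at D3 (adjusted p = 0.0584 and 0.0963). The scavenger receptor Marco went the other way, at 0.71, 0.37 and 0.94 (adjusted p = 0.245, 0.656 and 0.0745). Fabp4 gave 0.50 ± 0.50, -0.06 ± 0.48 and 0.35 ± 0.50 at the 3 doses (limma adjusted p = 0.636, 0.975 and 0.722). At D3 Atp6v0d2 was positive too (0.10), and Plet1 was at -0.02. Pparg, the nuclear receptor needed to form these cells, gave -0.34 at D2 and -0.48 at D3 (adjusted p = 0.0784 and 0.00587), the latter under the 1.5-fold limit.

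The mean log2 ratio of the alveolar macrophage genes was 3.20 to 3.43 in the D0 mice, 3.02 to 3.47 in D1, 2.64 to 3.08 in D2 and 2.91 to 3.07 in D3. No D2 or D3 mouse reached the D0 range, and D1 mouse 25 was the lowest of D1 (3.02) and D2 mouse 28 the highest of D2 (3.08). By a 2-sided exact permutation test against D0, p was 0.00794 at D2 and at D3, the smallest these group sizes allow, and 0.0655 after adjustment over 33 list and dose comparisons, of which none passed. The eosinophil genes at D3 (0.42 to 0.66, against 0.75 to 0.96 in D0) and the mast cell and basophil genes at D2 (1.55 to 1.78, against 1.45 to 1.55 in D0, here higher) had the same p and adjusted p. Within groups this level gave r of 0.74 and rho of 0.72 with Ear10 (adjusted permutation p = 0.082 and 0.0425 over 44 relations), 0.68 and 0.58 with Ear1 (adjusted permutation p = 0.152 and 0.217) and 0.44 and 0.51 with Ear2 (adjusted permutation p = 0.432 and 0.377). Without the 2 most extreme mice r was 0.70, 0.52 and 0.60. The mean of the 5 tested eosinophil genes gave r of 0.29 with Ear10, 0.20 with Ear1 and 0.44 with Ear2 (adjusted permutation p = 0.608, 0.769 and 0.378). In bulk lung RNA, fewer cells of a type and less RNA per cell cannot be told apart.

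**Figure D5:**
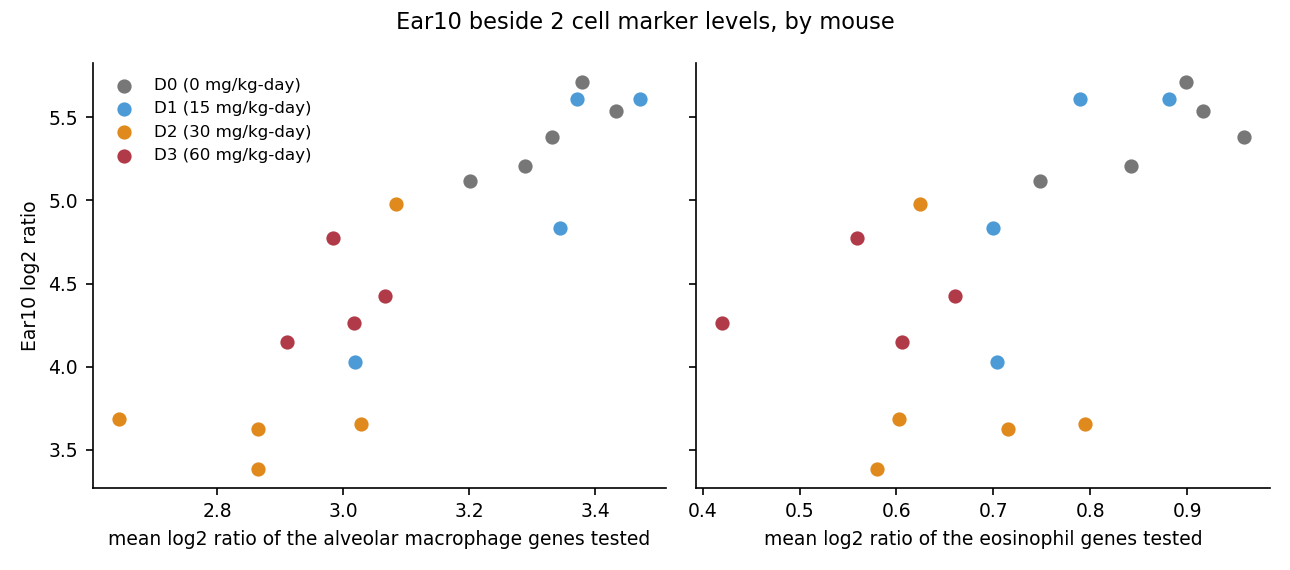
Ear10 log2 ratio (vertical axis) against the mean log2 ratio of the tested alveolar macrophage genes (left) and eosinophil genes (right) on the horizontal axis, 1 point per mouse, coloured by group. The D2 and D3 mice lie under 3.2 on the left axis and the D0 mice at or above it; the eosinophil level rests on 5 genes without Epx, Prg2 and Prg3, and shares Siglecf with the other list.

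Signals that recruit or sustain eosinophils gave no call. Of 18 type 2 cytokine, chemoattractant and receptor genes, 13 were tested and none was called by limma at any dose. Il4 and Il5 were well above background in 1 mouse each and Il13 in none. Il33, an epithelial alarmin, was at -0.04, -0.10 and -0.40 (adjusted p = 0.946, 0.874 and 0.218). At D2 the eotaxins Ccl11 and Ccl24 were at -0.06 and -0.21, Csf2 (GM-CSF, on which alveolar macrophages depend) at -0.18, and Retnla, a marker of type 2 macrophage activation, at 0.21, with adjusted p from 0.509 to 0.896.

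The lists for monocytes, neutrophils, mast cells and basophils held no called gene at D2, where Ear1 and Ear10 were lowest. At D2, however, 8 of 10 neutrophil genes had positive differences and 2 negative ones, beside 51.1% negative among all tested probes. Their median was 0.46, with Camp at 1.34 and S100a8 at 0.98 (limma adjusted p = 0.083 and 0.113). Their mean level was 0.51 above D0 (exact permutation p = 0.0317, 0.131 after adjustment). Lymphocyte genes were not examined. Treml4, of nonclassical monocytes, was at 0.26, -0.14 and -0.06 and was not called, nor was any other gene of that list (9 tested), of the classical monocyte and interstitial macrophage list (8 tested) or of the mast cell and basophil list (6 tested). The neutrophil list had 1 of 10 genes called higher at D1 (Mpo, a call lost in 15 of 29 alternatives), none at D2 and 4 at D3 (with S100a9 and Cxcr2), S100a8 (1.77 ± 0.33, limma adjusted p = 0.00178) and Retnlg (1.30 ± 0.30, limma adjusted p = 0.00843) with the largest changes. Without D3 mouse 34 Retnlg was at 0.84. Its call was lost in 2 of 29 alternatives and that of S100a9 in 7. Csf3r of the same list went the other way, at -0.37, -0.18 and -0.46 (limma adjusted p = 0.0445, 0.404 and 0.00655), under the 1.5-fold limit. Elane was at -0.07, -0.02 and -0.13, and Mpo was at 0.04 at D3. Within groups the neutrophil level gave r of -0.36 and rho of -0.51 with Ear10 (adjusted permutation p = 0.378 and 0.237), and r of -0.34 with Ear1 and -0.21 with Ear2 (adjusted permutation p = 0.379 and 0.685). Without the 2 most extreme mice these r were -0.60, -0.45 and -0.67. With slide means removed they were -0.47, -0.40 and -0.58. Of the lung identity, cardiac muscle and red blood cell lists none had a called gene. The cardiac muscle level, 2.46 to 3.16 in D0, was 0.43 in D2 mouse 28 and 2.96 to 3.85 in the other D2 mice, so the D2 mouse with the highest Ear1 and Ear10 values also had the least cardiac muscle RNA of its group. D3 mouse 35, with a cardiac muscle level of 0.56, had the lowest Ear1 value of its group, and D1 mouse 24, with 0.54, was among the highest of D1 for both. Within groups this level gave r of -0.36 with Ear1 (adjusted permutation p = 0.588; 0.25 without the 2 most extreme mice) and -0.48 with Ear10 (adjusted permutation p = 0.432; 0.02 without them).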

How the data were processed

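Lung RNA (red) and Universal Mouse Reference RNA (green) were hybridised on 19 Agilent arrays from 18 mice; the 2 arrays of mouse 35 were averaged. The deposited scanner files hold spot intensity as median signals, made by the authors with Agilent Feature Extraction 11.0.1.1 per the file headers, without normalization. A deposited table holds log2 ratios that the authors had normalised by LOWESS; its correlation with the ratios used here was 0.995 to 0.998 over probes, and its column medians ran from -0.0348 to -0.0173.

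The analysis dropped 3671 control spots of 62976 and 171 to 323 spots per array that the software had marked as outliers. Median signals were loess normalised (span 0.3) without background subtraction, and spots of a probe were averaged. Probes were tested where red was well above background in at least 4 mice of a group. No spot was saturated, no dyes were swapped, and the number of arrays limits the precision. Symbols came from matching 21465 of 22765 RefSeq-type accessions to a RefSeq table of GRCm38.p6. limma 3.58.1 (R 4.3.3) was fitted over all 4 groups. The MAANOVA test of the study was not installed.

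The Ear genes and all gene lists were chosen with earlier results of these data known. Named were all Ear probes, the 2 largest called changes of each list (brightest probe per gene), a fixed set of cell and cytokine genes, and the 10 genes most like Ear2 within groups, 1 of which is not reported here. The alternatives were median centring, the processed signals of the scanner software, normexp (offset 50, on median signals), the deposited table, the red channel alone, slide as a block, other filters, single arrays of mouse 35, mouse 23 in D1 and leaving out each mouse. The fit was tested on simulated data. Promoter windows were aligned with Biopython 1.88. Protein sequences were not compared here.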

Additional observations from a re-analysis of the deposited data

Results flagged for a closer look

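Of 68 sets of values of 1 group checked for a sample far from the others, 7 stood out by Dixon's test, where chance gives about 1 in 20. Among the Ear probes these were D2 mouse 28, high for Ear1 (4.80, the next D2 mouse at 3.17), for Ear10 (4.98, the next at 3.69) and for Ear12 (4.61, the next at 3.18). D1 mouse 25 stood high for Ear6 (0.33, the next at -0.04), a probe near background, while it was the lowest D1 mouse for Ear1, Ear10 and Ear2. Mouse 28 also stood out for its low cardiac muscle level (0.43, the next at 2.96), as did D0 mouse 3 (2.46, the next at 3.02). For the neutrophil list, D3 mouse 34 stood high (3.13, the next at 2.11). The sets are not independent, since mouse 28 recurs on probes that moved together within groups, so the 7 cannot be weighed against 1 in 20.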

How the results depend on the processing

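All 132 differences of the Ear probes from D0 under other processing were negative, as were 215 of 216 with a mouse left out, the exception being Ear1 at D1 without mouse 25. Calls were less stable. Centring each array on its median in place of loess left 0 Ear probes past the call rule at D2 and 0 at D3, 0 and 0 calls among the other family genes, and 0, 0 and 1 among the gene lists at D1, D2 and D3 (1, 2 and 8 in the text). The gene lists here include the ribonuclease A family, so Rnase2a is in both its list count and the other family count. The processed signals gave 1 Ear probe at D2, 0 and 0 other family calls at D2 and D3, and 1 and 4 list calls, and moved the D2 difference of Ear2 to -0.26. Median centring moved Ear2 to -0.14 at D1 and -0.44 at D3. Normexp, the red channel alone and slide as a block each gave 2 Ear probes at D3. With mouse 23 in D1 there was 1 Ear probe at D2 and 0 at D3, 0 other family calls at D2 and at D3, and 3 and 1 list calls at D1 and D2. List calls at D1 were 0 with the deposited table and without a filter and 2 with slide as a block, and other family calls at D3 were 0 without a filter and with the first array of mouse 35 alone. Leaving out single mice gave 1 to 3 Ear probes at D2 and 0 to 2 at D3, 0 to 2 other family calls at D2 and at D3, and 0 to 3, 0 to 4 and 6 to 8 list calls at D1, D2 and D3. The count of Ear probes was 1 at D2 without D0 mouse 3, and 0 at D3 without any one of D0 mice 1, 3, 4 and 5 or D3 mice 31, 34 and 35. Without D2 mouse 28 it was 2 at D3, and list calls at D2 were 4. Of the 10 genes most like Ear2, 6 stayed within the first 100 with median centring, 4 with slide means removed and 2 with the red channel alone. No pairing by animal was possible because the groups share no animal numbers, and matching by slide was covered by the fit with slide as a block.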

Other observations

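Outside the Ear genes, the 10 genes whose within-group deviations over 18 mice were most like those of Ear2 included Sec16b (r = 0.91), Snf8, Sf3a3, Iffo1, Nsmce1, Grk6, Txnrd2, Cd2 and Mcemp1 (r = 0.84). These gave r of 0.08 (Cd2) to 0.49 (Mcemp1) with Ear1. Only 0.177% of 30999 probes had r over 0.8 with Ear2. Slides held 31.3% (Iffo1) to 74.4% (Cd2) of the within-group variance of these genes, beside 52.1% for Ear2, and Ear2 and these genes share the slides. None of these named genes was called at any dose by limma.

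With slide means removed, which was added after the data were seen, the 10 genes most like Ear1 and the 10 most like Ear10 had 4 in common. These were Axl, a receptor for clearing dead cells (r = 0.90 with Ear1 and 0.87 with Ear10), Mcemp1, a mast cell and macrophage membrane protein (0.87 and 0.87), Gm8096 (0.94 and 0.93) and 5730416F02Rik (0.85 and 0.87). With only group means removed these r were 0.61 and 0.39 for Axl and 0.49 and 0.71 for Mcemp1. They were 0.83 and 0.65 for Gm8096 and 0.87 and 0.80 for 5730416F02Rik. Ear10 and Ear2 shared 4 others, Dis3, Dnase1l1, Mvb12a and Nubp1. Ear1 and Ear2 shared 0 of 10, and Ear6 shared 0 of 10 with each of the other 3. Axl was at -0.41 and Mcemp1 at -0.36 at D2.

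Within groups, Ear2 also moved with the level of the lung identity genes (r = 0.76, rho = 0.78, adjusted permutation p = 0.0504 and 0.0425 over 44 relations) and of the red blood cell genes (r = 0.69, rho = 0.71, adjusted permutation p = 0.0504 and 0.0425). Without the 2 most extreme mice r was 0.67 and 0.58, and with slide means removed 0.50 and 0.43. Ear1 gave -0.18 and -0.17 with the same lists, and 0.23 and 0.26 with slide means removed.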
